A study of Mus musculus with 13 samples.

Results

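The genes described here are 37 mouse genes that build and hold together the sarcomere, the repeating contractile unit of striated muscle: 2 sarcomeric actins, proteins of the thin filament ends, titin and myosin-binding protein C, the M-band, the Z-disc, the intermediate filaments and filamin that tie myofibrils to one another, and the signalling proteins and ubiquitin ligases that sit on this scaffold. They were taken by name from a fixed list that leaves out myosins, troponins and tropomyosins, and all 37 were found among the 55487 genes of the count table. The study sorted 2 kinds of cardiac muscle cell by flow cytometry from the junction of the sinoatrial node and the right atrium of neonatal mice that carried an Hcn4-GFP reporter, alone or together with a Myh6-mCherry reporter. Pacemaker cells (PC) come from the sinoatrial node, which sets the heart beat, and right atrial cardiomyocytes (RACM) are the working muscle cells next to it. RNA was sequenced from 3 PC and 3 RACM libraries, each cell type having libraries numbered p0, p2 and p4, and each replicate was a pool of 8 to 10 hearts. No treatment was given, the reporters are shared by both cell types, and the labels give no age beyond neonatal and no meaning for the p number. The comment lines at the head of the table give the alignment files behind PC libraries as RedGreen and those behind RACM libraries as Red. The 7 ATAC-seq samples of the series were not analysed here.

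In a sarcomere, actin thin filaments are anchored at the Z-disc, where alpha-actinin crosslinks them, and myosin thick filaments are crosslinked in the middle at the M-band. Titin spans from one to the other and acts as a spring and a ruler, while desmin filaments and filamin C link neighbouring myofibrils and the cell membrane. Pacemaker cells are known as small, pale cardiomyocytes with few and loosely ordered myofibrils.

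Read depth was 18371816 to 22290996 counted fragments in PC and 14141151 to 19555932 in RACM. The 9 pacemaker markers (Hcn4, Isl1, Shox2 and others) were all called higher in PC, with summed levels of 5998 to 6099 CPM (counts scaled to library size) against 236 to 347 in RACM; the GFP reporter used in the sort reads Hcn4. Myh6, a cardiac myosin heavy chain, was present in every library, and its log2 fold change of 0.04 missed the threshold (adjusted p = 0.953). Of the 10 atrial cardiomyocyte markers that include Myh6, none was called higher in PC and 4 were called lower: Nppa (log2 fold change -3.87), Bmp10 (-6.07), Gja1 (-1.30) and Gja5 (-1.32). The list did not move one way: 5 of its log2 fold changes were above 0 and 5 below. With the p number as a block, 1 was called higher, Tnnt2 (log2 fold change 0.82, adjusted p = 0.0108), and 4 lower. Markers of other cells did not lie evenly. The summed level of 10 fibroblast markers, of which none was at 0, was 920 to 2257 CPM in PC and 1791 to 10953 CPM in RACM, highest in RACM p4, and 2 of the 10 were called lower in PC, or 8 of the 10 with the p number as a block. Of 8 macrophage markers 7 were called lower in PC, at summed levels of 9.42 to 48.8 CPM against 164 to 741 CPM, and C1qa was at 0 in PC p2. Among 10 smooth muscle and pericyte markers, 3 were called higher in PC (Cnn1, Cspg4 and Myh11) and 2 lower (Pdgfrb and Notch3), with summed levels of 437 to 719 CPM in PC and 216 to 684 CPM in RACM. The 5 ventricular markers summed to 389 to 498 CPM in PC and 431 to 940 CPM in RACM, where the highest value, in RACM p0, came with 243.9 CPM of Myl2. These lists share genes with cardiac muscle (Acta2, Myl2, Myh7), and their part in the results below was not tested.

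Most scaffold genes were transcribed at high levels in both cell types, and a few of them differed. The 3 genes that rose in PC relative to RACM were Xirp2, Synpo2 and Tcap, each by 2.34 to 2.68 times in mean CPM. The 2 that fell were Fhl1, to 0.368 of its RACM level, and Smpx, to 0.565. The other 32 did not pass the test. With edgeR's quasi-likelihood test and Benjamini-Hochberg adjustment over the 18015 genes tested, at a threshold of 0.05, 3.69% of all genes were called higher in PC and 3.57% lower, or 7.27% in either direction; beside those shares, 3 and 2 of 37 say nothing particular about the list as a whole. DESeq2, run on the same libraries, called 9 members higher and 2 lower, where it called 6.21% and 6.58% of all genes. Of the 37 log2 fold changes, 23 were above 0, as were 50.5% of those of all genes. When the p number entered the same fit as a block, which compares PC and RACM libraries of the same number, 10 members were called higher and 3 lower, where 5.96% and 5.60% of all genes were. The 5 genes called without the block were called with it, and the 8 added were Actc1, Ldb3, Myom1, Csrp3, Des, Flnc and Cryab, which were higher, and Ankrd1, which was lower. Leaving out RACM p0 also raised the count called higher without the block, to 7, and leaving out p0 or p2 of PC, or p2 or p4 of RACM, left 0 called lower. The shares of all genes called in these reduced fits are not given here, so their counts are not read as a trait of the list. In 13 members every PC library lay above every RACM library and in 4 every PC library lay below; over all genes tested these shares were 13.5% and 13.4%. The median log2 fold change was 0.24 over the members and 0.01 over all genes tested; without both p4 libraries the members' median was -0.02. In such sorted pools, fewer cells of a type and less RNA per cell cannot be told apart.

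**Figure D1:**
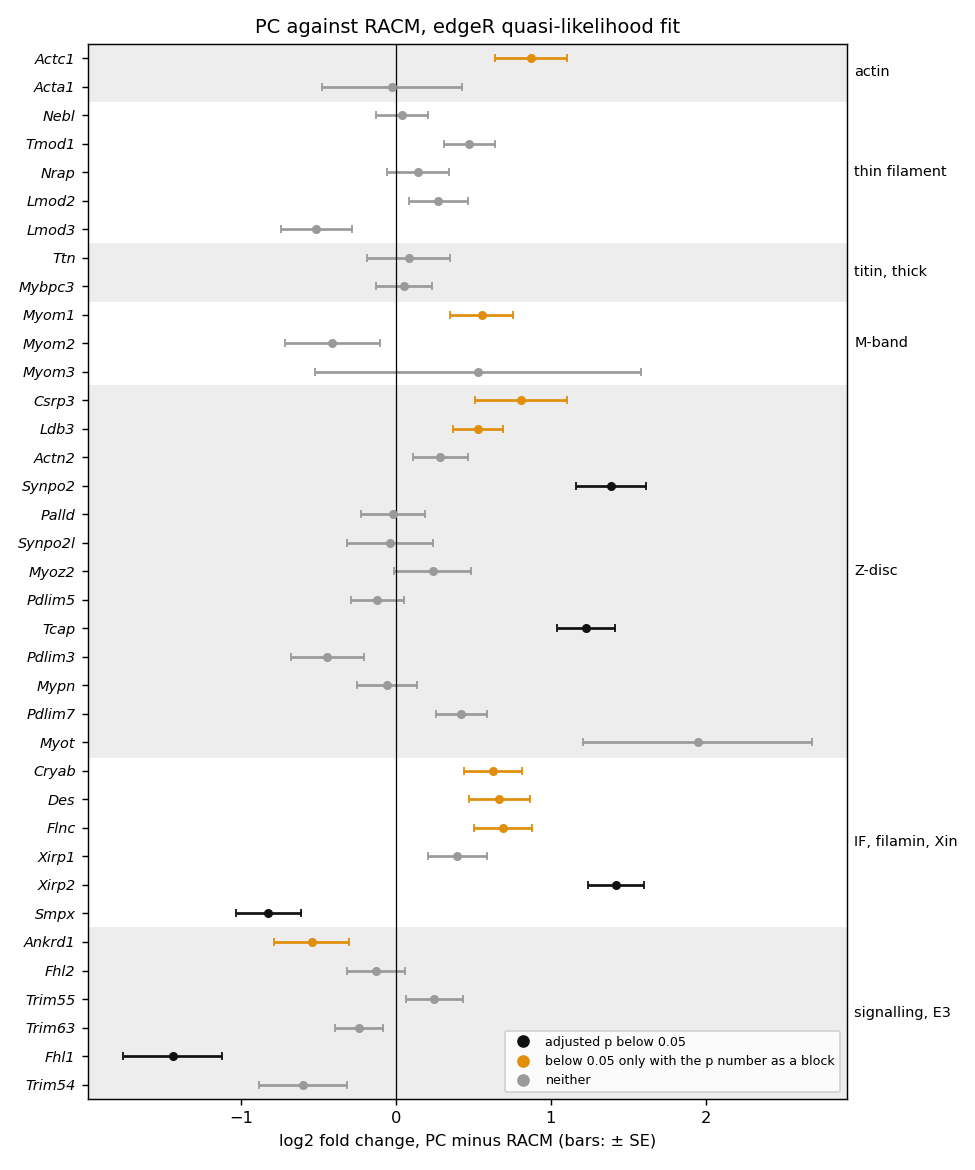
Log2 fold change of the 37 scaffold genes, PC minus RACM, on the horizontal axis, with bars of ± 1 SE from the edgeR fit over 3 PC and 3 RACM libraries and genes grouped by role. Xirp2, Synpo2 and Tcap stand to the right and Fhl1 and Smpx to the left as the members that pass the test (black); 8 more pass only with the p number as a block (orange), and the wide bars of Myot and Myom3 belong to genes of few reads.

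Ordered by CPM per kilobase of exon, as the mean of both cell types, the scaffold genes spanned several orders of magnitude. Actc1, the cardiac actin of the thin filament, was first, at 12073 CPM per kb in PC and 6587 in RACM. Cryab, a small heat shock protein that protects desmin and titin, came next, at 1028 and 666 CPM per kb, followed by Csrp3, the muscle LIM protein of the Z-disc, at 678 and 387. Behind them in that mean lay Ankrd1, Ttn, Actn2, Mybpc3, Fhl2, Ldb3 and Des, each between 153 and 500.04 CPM per kb in both cell types. In RACM taken alone, Ankrd1 was above Csrp3. Fhl2 and Ldb3 did not separate in this order, with means over the 6 libraries of 223.1 and 222.2 CPM per kb, and Ttn changed places with Ankrd1 and Actn2 from library to library. Not scaled by length, 30 of the 37 had a mean over 100 CPM in both cell types, and 3 were under 10 CPM in both: the skeletal actin Acta1, Myom3 and Myot.

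**Figure D2:**
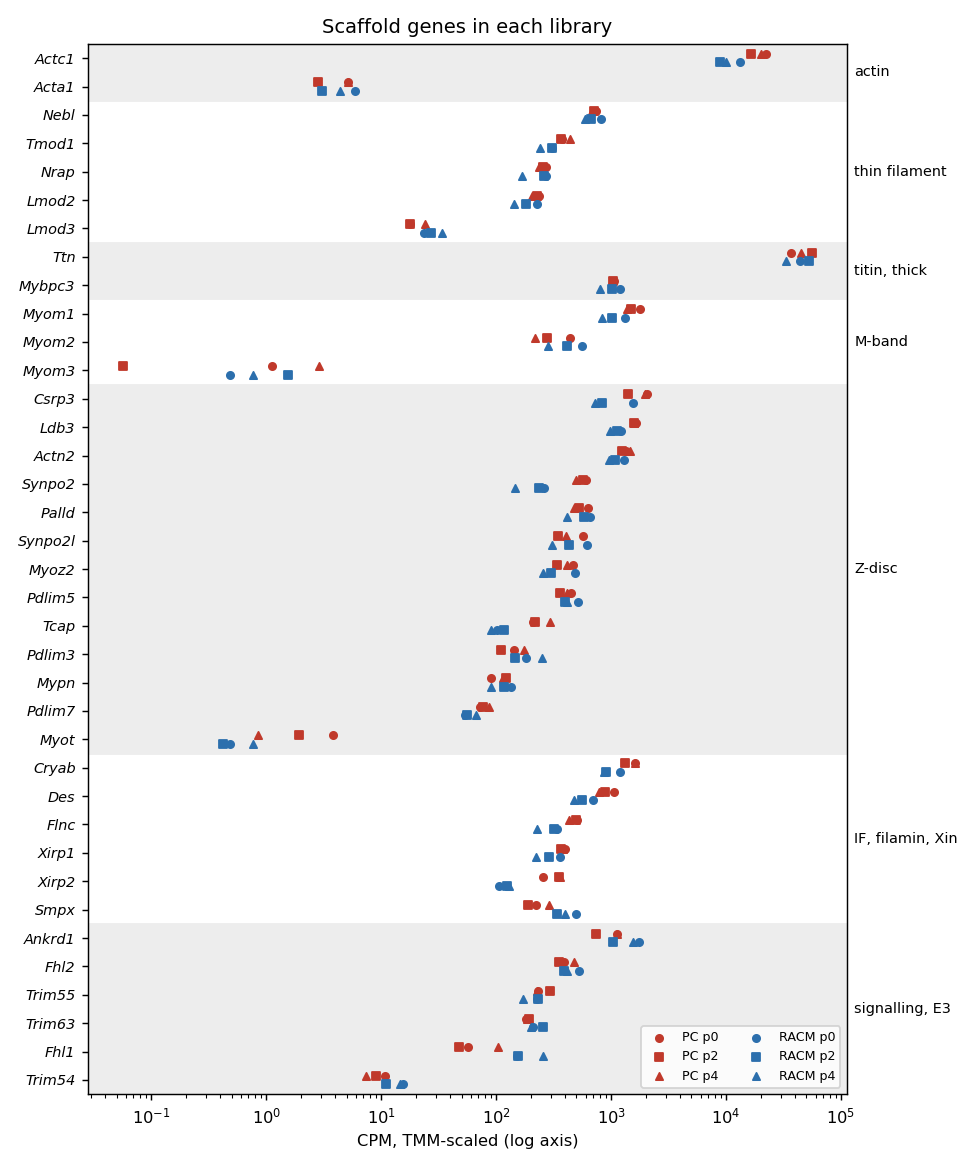
CPM of each scaffold gene in each of the 6 libraries on a log axis (TMM-scaled, not divided by gene length), red for PC and blue for RACM, with circle, square and triangle for p0, p2 and p4. Red and blue points stand apart in Tcap, Synpo2, Xirp2, Smpx and Fhl1 and are intermixed in Ttn, Mybpc3, Nebl and Palld; Actc1 and Ttn lie far to the right and Acta1, Myom3 and Myot far to the left.

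The actin isoforms showed cardiac actin almost alone. Listed here and below in the order p0, p2, p4, Actc1 was at 22118, 16374 and 20111 CPM in the PC libraries and 13208, 8784 and 9983 in the RACM libraries. Every PC library was above every RACM library, with a ratio of means of 1.83. The log2 fold change of 0.87 ± 0.23 (SE, n = 3 libraries each) missed the threshold in edgeR's fit without a block (adjusted p = 0.0555) and passed it with the block (adjusted p = 0.004). Leaving out RACM p0 also brought Actc1 past the threshold (adjusted p = 0.023). Acta1, the skeletal muscle actin that fetal heart also makes, was at 5.12, 2.82 and 5.14 CPM in the PC libraries and 5.93, 3.04 and 4.37 in the RACM libraries. The groups overlap, and its log2 fold change was -0.03 ± 0.45 (adjusted p = 0.984). Per kilobase, Acta1 stood at 2.31e-04 ± 4.51e-05 of Actc1 in PC and 4.33e-04 ± 5.91e-05 in RACM (SD, n = 3). Acta2, the smooth muscle actin, is no member but was far more abundant than Acta1, at 481, 301 and 533 CPM in the PC libraries and 82.1, 99.2 and 290.6 in the RACM libraries. It did not pass without the block (adjusted p = 0.0909) and was called higher with it (adjusted p = 0.00991).

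The promoters of both sarcomeric actins hold a CArG box, the serum response factor motif known from muscle genes, and they are shown because their transcripts differ so widely in level. Each is the 250 bases before the RefSeq transcription start (GRCm38.p6, the mm10 build of the count table), on the gene's own strand, Actc1 from the minus strand of chr2:114052876-114053125 and Acta1 from the minus strand of chr8:123894776-123895025; capitals mark motif matches on either strand, the 10-letter CArG box in both and TATAAA in Acta1.
Actc1: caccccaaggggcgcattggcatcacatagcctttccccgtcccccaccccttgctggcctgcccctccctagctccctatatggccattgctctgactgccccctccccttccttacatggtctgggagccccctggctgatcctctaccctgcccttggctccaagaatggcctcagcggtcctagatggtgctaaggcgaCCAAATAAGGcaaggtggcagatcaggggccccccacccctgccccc
Acta1: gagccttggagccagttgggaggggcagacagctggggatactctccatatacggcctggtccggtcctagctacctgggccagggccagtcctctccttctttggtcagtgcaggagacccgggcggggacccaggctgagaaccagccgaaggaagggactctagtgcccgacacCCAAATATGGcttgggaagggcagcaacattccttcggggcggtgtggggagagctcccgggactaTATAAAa
The CArG box begins 47 bases before the start in Actc1 and 73 in Acta1, and the TATAAA of Acta1 lies 7 bases before it. These distances depend on the start used. In the count table's annotation, the Actc1 start is internal, downstream of the gene's 5′ end at 114053548. The Acta1 start lies upstream of its gene's 5′ end at 123894751. Of 32851 mouse promoters of the same length, 1.5% hold a CArG box and 12.4% TATAAA. Promoter entries were found for 30 of the 37 genes, and 9 of their 42 entries hold a CArG box. These belong to 7 of the genes: Acta1, Actc1, Fhl1, Fhl2, Ldb3, Myom1 and Nebl. The 7 include genes higher in PC with the block (Actc1, Ldb3 and Myom1), a gene lower in PC (Fhl1) and genes called in neither fit.

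At the thin filament ends, none of 5 genes passed either fit. Tmod1, which caps the pointed end of actin filaments in the middle of the sarcomere, had the smallest p of this group, at 374.8, 369.0 and 435.2 CPM in the PC libraries and 306.0, 303.3 and 240.1 in the RACM libraries. All 3 PC libraries were above the RACM libraries, but the log2 fold change of 0.47 ± 0.16 did not pass (adjusted p = 0.128). Of the exon bases of Tmod1, 32.6% are shared with the overlapping gene Tstd2, and the counting ignored strand. The leiomodins, which elongate thin filaments at the same end, had log2 fold changes of opposite sign: 0.28 for Lmod2, the main cardiac form (adjusted p = 0.472), and -0.51 for Lmod3 (adjusted p = 0.236). Nebl, the cardiac relative of nebulin that binds thin filaments next to the Z-disc, averaged 713 ± 27.4 CPM in PC and 694 ± 108 in RACM. Nrap, which organises actin during myofibril assembly, averaged 255.7 ± 18.1 and 231.8 ± 57.1 CPM. Neither moved beyond the spread of the libraries.

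Ttn and Mybpc3, the genes of the titin and thick filament scaffold, were at like levels in both cell types. Ttn, which encodes the giant spring titin, was at 36624, 55993 and 44549 CPM in the PC libraries and 43642, 52947 and 32903 in the RACM libraries. PC p0 and p4 lay within the RACM range and PC p2 above it. Its log2 fold change was 0.08 ± 0.27 (adjusted p = 0.901). Mybpc3, the myosin-binding protein that sets how myosin heads are held back, was at 1062, 1038 and 1024 CPM in the PC libraries and 1184, 1022 and 802 in the RACM libraries, again overlapping (log2 fold change 0.05 ± 0.18, adjusted p = 0.906). The sign of both is not fixed: without both p4 libraries each log2 fold change was -0.09.

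In the M-band, none of the 3 myomesin genes passed without the block and Myom1 alone passed with it. Myom1, the myomesin made in all striated muscle, was at 1780, 1495 and 1381 CPM in the PC libraries and 1310, 1028 and 835 in the RACM libraries. The PC libraries were all above the RACM libraries, with a log2 fold change of 0.55 ± 0.21 that passed only with the block (adjusted p = 0.156 without it and 0.0214 with it). Myom2, the M-protein of adult heart and fast muscle, was at 441, 280 and 217 CPM in the PC libraries and 553, 413 and 280 in the RACM libraries. It was lower in PC at each p number, but its groups overlap and it passed neither fit (log2 fold change -0.41 ± 0.31, adjusted p = 0.515, and 0.0631 with the block). Within a library, Myom2 per kilobase stood at 0.293, 0.221 and 0.186 of Myom1 in PC and at 0.499, 0.475 and 0.396 in RACM, and these ratios do not overlap. Myom3 was below 3 CPM in every library.

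The Z-disc core held 13 members, of which Tcap and Synpo2 rose in PC and Csrp3 and Ldb3 were added by the block. Tcap encodes telethonin, the cap that ties the ends of a pair of titin molecules together at the edge of the Z-disc. It was at 211.2, 217.6 and 292.9 CPM in the PC libraries and 100.9, 117.0 and 90.3 in the RACM libraries. The lowest PC library was well above the highest RACM library, and the means were 241 ± 45.4 and 103 ± 13.4 CPM (SD, n = 3). The log2 fold change was 1.23 ± 0.19 (adjusted p = 0.00603). Tcap (ENSMUSG00000007877) is a short gene on the plus strand of chromosome 11 (mm10), from 98383811 to 98384953, with 948 exon bases shared with no other gene.

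Synpo2 encodes myopodin, an actin-binding protein of the Z-disc that also takes part in clearing damaged filamin. Its levels were 600.6, 569.6 and 499.4 CPM in the PC libraries and 258.6, 234.2 and 145.6 in the RACM libraries. The groups lay far apart, with means of 557 ± 51.9 and 213 ± 59.4 CPM and a log2 fold change of 1.39 ± 0.22 (adjusted p = 0.00801). Smooth muscle also makes Synpo2. Of the smooth muscle and pericyte markers, Myh11 was at 26.8 ± 5.70 CPM in PC and 4.17 ± 3.55 in RACM, Cnn1 and Cspg4 were likewise called higher in PC, and the summed levels are given above; the part of these cells in the Synpo2 result was not tested. The gene (ENSMUSG00000050315) lies on the minus strand of chromosome 3, from 123076519 to 123236149. Its paralogue Synpo2l, also a Z-disc protein of heart, overlapped between cell types (439 ± 118 against 450 ± 155 CPM, adjusted p = 0.961). Per kilobase, Synpo2 stood at 0.373 to 0.588 of Synpo2l in PC and 0.149 to 0.191 in RACM.

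Csrp3, the muscle LIM protein, was at 2053, 1416 and 1962 CPM in the PC libraries and 1553, 829 and 720 in the RACM libraries. RACM p0 lay inside the PC range, so the groups overlap, and the log2 fold change of 0.81 ± 0.30 passed with the block (adjusted p = 0.0271) and without RACM p0 (0.0161) but not in the fit of all 6 libraries without the block (0.152). Ldb3, or ZASP, which binds alpha-actinin and keeps the Z-disc intact under load, was at 1652, 1569 and 1589 CPM in the PC libraries and 1224, 1134 and 971 in the RACM libraries. The groups did not overlap (log2 fold change 0.53 ± 0.16, adjusted p = 0.0894, and 0.0271 with the block). Actn2, the alpha-actinin that crosslinks actin in the Z-disc, was at 1339, 1244 and 1474 CPM in the PC libraries and 1297, 1076 and 949 in the RACM libraries. RACM p0 was again within the PC range, and Actn2 passed neither fit (log2 fold change 0.29, adjusted p = 0.413).

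The other Z-disc genes passed neither fit. The Pdlim genes among them had log2 fold changes of both signs. Pdlim7 had 0.42 with groups that did not overlap (adjusted p = 0.171). Pdlim3 had -0.44 (adjusted p = 0.344) and Pdlim5 -0.12 (adjusted p = 0.762). Myoz2, a calcineurin-binding protein, had 0.24 (adjusted p = 0.662), and the titin- and actinin-binding palladin relatives Mypn and Palld had -0.06 and -0.02 (adjusted p = 0.903 and 0.974). Myot, myotilin, had the highest log2 fold change of the 37, 1.95 ± 0.74, on levels of only 0.848 to 3.78 CPM in PC and 0.418 to 0.768 CPM in RACM, and did not pass (adjusted p = 0.164).

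Among the 6 genes of intermediate filaments, filamin and Xin proteins, 5 were higher in every PC library than in any RACM library and 1 was lower in every one. Over all genes tested these shares were 13.5% and 13.4%. Of the 5, Xirp2 alone was called without the block. Xirp2, a Xin-repeat actin-binding protein of Z-discs and intercalated discs, rose. It was at 257, 354 and 359 CPM in the PC libraries and 106.6, 125.2 and 130.2 in the RACM libraries. The means were 324 ± 57.6 and 121 ± 12.4 CPM, the log2 fold change was 1.42 ± 0.18, and its adjusted p of 0.00262 was the smallest among the 37. Its paralogue Xirp1, the other Xin protein of heart, was at 367 to 399 CPM in PC and 221 to 358 CPM in RACM and its log2 fold change of 0.40 missed the threshold (adjusted p = 0.284). Xirp2 (ENSMUSG00000027022) lies on the plus strand of chromosome 2, from 67173834 to 67526615.

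Both Xirp2 and Synpo2 hold a MEF2 motif, bound by the MEF2 factors of muscle, in the 250 bases before their RefSeq start, and so do Ttn and Mybpc3, which did not differ beyond the spread of the libraries. The 4 sequences are shown together because the same motif stands before genes that rose and genes that did not pass. They come from GRCm38.p6 on the gene's own strand: Xirp2 from the plus strand of chr2:67445752-67446001, Synpo2 from the minus strand of chr3:123236150-123236399, Ttn from the minus strand of chr2:76982548-76982797 and Mybpc3 from the plus strand of chr2:91117894-91118143, with the 10-letter MEF2 match in capitals.
Xirp2: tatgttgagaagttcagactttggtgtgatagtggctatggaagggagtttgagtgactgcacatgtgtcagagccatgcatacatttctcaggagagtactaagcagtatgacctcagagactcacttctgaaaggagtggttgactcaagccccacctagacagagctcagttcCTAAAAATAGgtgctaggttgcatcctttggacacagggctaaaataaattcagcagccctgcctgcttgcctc
Synpo2: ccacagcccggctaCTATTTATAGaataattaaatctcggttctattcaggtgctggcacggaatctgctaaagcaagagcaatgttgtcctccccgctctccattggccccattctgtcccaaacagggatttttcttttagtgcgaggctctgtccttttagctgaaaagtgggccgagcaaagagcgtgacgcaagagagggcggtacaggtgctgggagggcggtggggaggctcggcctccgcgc
Ttn: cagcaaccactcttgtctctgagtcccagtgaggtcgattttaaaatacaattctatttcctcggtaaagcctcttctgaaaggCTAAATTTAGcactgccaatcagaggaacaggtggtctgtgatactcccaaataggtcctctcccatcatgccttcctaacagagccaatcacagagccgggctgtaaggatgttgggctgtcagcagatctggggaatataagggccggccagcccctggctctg
Mybpc3: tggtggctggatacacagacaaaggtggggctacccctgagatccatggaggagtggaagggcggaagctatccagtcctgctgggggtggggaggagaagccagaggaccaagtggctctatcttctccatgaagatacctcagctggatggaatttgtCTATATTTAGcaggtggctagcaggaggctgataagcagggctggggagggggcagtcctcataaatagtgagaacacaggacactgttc
The match lies 74 bases before the start in Xirp2, 236 in Synpo2, 166 in Ttn and 90 in Mybpc3, and in Synpo2 it overlaps a TATAAA read on the opposite strand. The Xirp2 start is an internal one, downstream of the annotated 5′ end of the gene. Myoz2 and Synpo2l, neither of them called, hold the motif too, which makes 6 of the 30 genes with a promoter entry. Counted by promoter, 6 of the 42 entries of these 30 genes hold it, and 0.5% of the 32851 mouse promoters do. No entry was found for Tcap, and those of Smpx and Fhl1, which fell, hold no MEF2 match.

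Desmin, filamin C and alpha-B crystallin passed with the block only. Des, the intermediate filament of muscle, was at 1069, 884 and 780 CPM in the PC libraries and 691, 554 and 477 in the RACM libraries (log2 fold change 0.67 ± 0.20, adjusted p = 0.0800, and 0.00917 with the block). Flnc, the actin crosslinker at Z-discs and intercalated discs, was at 503, 492 and 429 CPM in the PC libraries and 338, 319 and 225 in the RACM libraries (0.69 ± 0.19, adjusted p = 0.0613, and 0.0119 with the block). Cryab, the chaperone of desmin, was at 1617, 1328 and 1616 CPM in the PC libraries and 1193, 898 and 865 in the RACM libraries (0.63 ± 0.19, adjusted p = 0.0846, and 0.0211 with the block). None of the 3 had a RACM library as high as its lowest PC library. Cryab shares 17.0% of its exon bases with Hspb2 and Des 5.9% with a predicted gene.

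Smpx, the small muscle protein of the costamere that responds to stretch, moved the other way. It was at 223, 188 and 288 CPM in the PC libraries and 499, 341 and 396 in the RACM libraries, with no overlap. The log2 fold change of -0.82 ± 0.21 lay at the edge of the threshold (adjusted p = 0.0497, and 0.0146 with the block). PC p4 was the sole library that could be left out with the call kept (adjusted p = 0.0457); leaving out any other gave adjusted p between 0.0856 and 0.156. Smpx (ENSMUSG00000041476) lies on the plus strand of the X chromosome, from 157698910 to 157752591.

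The signalling proteins and ubiquitin ligases were the only role in which log2 fold changes were mostly negative, 5 of 6. Fhl1, a LIM-only protein that senses stretch at titin's spring region, fell in PC. It was at 56.7, 47.5 and 103.4 CPM in the PC libraries and 151.9, 155.0 and 257.0 in the RACM libraries. The highest PC library was below the lowest RACM library, the p4 library was the highest in each cell type, and the log2 fold change was -1.44 ± 0.32 (adjusted p = 0.0299, and 7.86e-04 with the block). It no longer passed when p0 or p2 of PC, or p2 or p4 of RACM, was left out, with adjusted p between 0.0652 and 0.12. Fibroblast markers were likewise higher in RACM and in each p4 library, by the summed levels given above, and their part in the Fhl1 result was not tested. Fhl1 (ENSMUSG00000023092) lies on the plus strand of the X chromosome, from 56731787 to 56793346. Its paralogue Fhl2, the main LIM-only protein of heart, overlapped between cell types, at 389, 350 and 475 CPM in the PC libraries and 526, 386 and 414 in the RACM libraries (log2 fold change -0.13, adjusted p = 0.769).

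Ankrd1, or CARP, a titin-bound ankyrin protein that is induced by stretch and also acts in the nucleus, was at 1115, 739 and 1115 CPM in the PC libraries and 1750, 1039 and 1540 in the RACM libraries. RACM was higher at each p number, RACM p2 lay inside the PC range, and the log2 fold change of -0.54 ± 0.24 passed only with the block (adjusted p = 0.242 without it and 0.0234 with it). The MuRF ubiquitin ligases, which act on M-band titin and mark sarcomere proteins for degradation, passed neither fit. Trim63 (MuRF1) had a log2 fold change of -0.24 with groups that did not overlap, Trim54 (MuRF3) -0.60 likewise, and Trim55 (MuRF2) 0.25 with overlap (adjusted p = 0.438, 0.271 and 0.511). Trim54 was near 10 CPM and shares 26.6% of its exon bases with a predicted gene.

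Pairs of related genes within one library make a comparison that does not depend on how libraries were scaled. Per kilobase, the ratio of Fhl1 to Fhl2 was 0.0850 ± 0.0229 in PC and 0.223 ± 0.0861 in RACM. The ratio of Xirp2 to Xirp1 was 0.370 ± 0.0784 in PC and 0.190 ± 0.0633 in RACM, and that of Trim63 to Trim55 0.712 ± 0.0837 and 0.993 ± 0.117. In these 3 pairs, and in Myom2 over Myom1 and Synpo2 over Synpo2l, no PC library overlapped a RACM library, whereas Pdlim3 over Pdlim5 and Lmod3 over Lmod2 overlapped. The pairs were chosen with these levels known and carry no test; 3 against 3 libraries would allow no exact permutation p below 0.1.

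**Figure D3:**
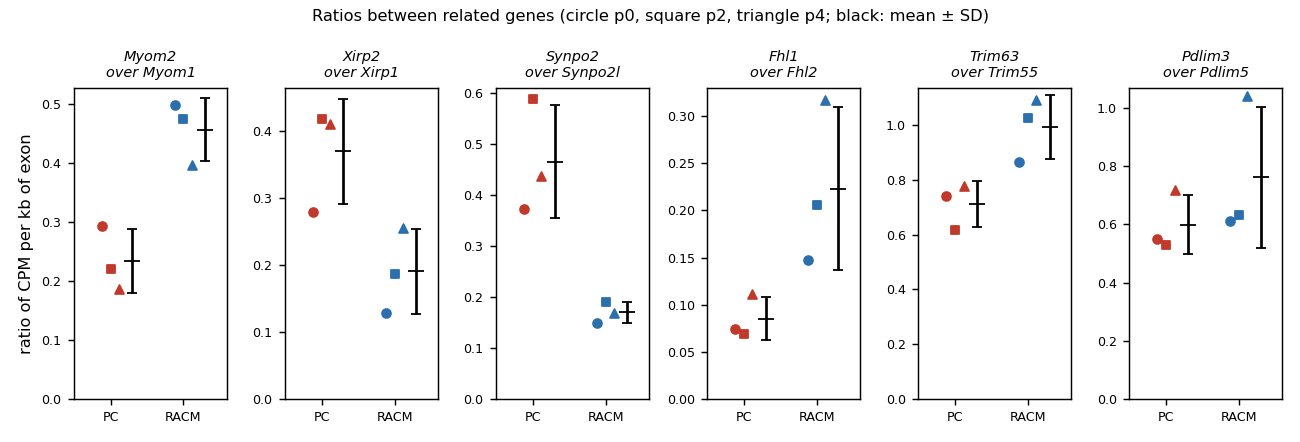
Ratio of CPM per kb of exon between related scaffold genes in each PC (red) and RACM (blue) library, each panel with its own axis from 0, and black bars for mean ± SD of 3 libraries. Myom2 over Myom1, Fhl1 over Fhl2 and Trim63 over Trim55 are lower in PC, Xirp2 over Xirp1 and Synpo2 over Synpo2l higher, and Pdlim3 over Pdlim5 overlaps.

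The gap between cell types was not the same at each p number. Comparing the PC and the RACM library of one number, with 0.5 CPM added to each, 19 of 37 members were higher in PC at p0 (median log2 ratio 0.01), 22 at p2 (0.08) and 29 at p4 (0.41). In 31 members the ratio was higher at p4 than at p0. RACM p4 was the lowest of the 6 libraries for 21 members, and the summed CPM of the 37 was 55570 there against 74686 and 75672 in RACM p0 and p2 and 78005 to 88912 in PC. Ttn and Actc1 make up most of this sum, at 32903 and 9983 CPM in RACM p4. The highest sum, in PC p2, held 55993 CPM of Ttn, though PC p2 was the lowest PC library for 18 members. RACM p4 also had the highest summed fibroblast (10953 CPM) and macrophage (741 CPM) markers, whose part in the member levels there was not tested. The contractile genes outside the list showed a like order of medians, 0.04, 0.12 and 0.51. The 5 called genes kept their side at every number: the log2 ratio of Xirp2 was 1.27 at p0, 1.46 at p4 and slightly higher at p2, while at p0, p2 and p4 that of Synpo2 was 1.21, 1.28 and 1.77, that of Tcap 1.06, 0.89 and 1.69, that of Fhl1 -1.41, -1.70 and -1.31, and that of Smpx -1.16, -0.86 and -0.46. In all, 17 members were above RACM at each number, 8 below and 12 of mixed sign. With 1 library of each cell type per number, no difference between numbers was tested. The counts by number were not made over all genes tested, so they are not read as a trait of the list.

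**Figure D4:**
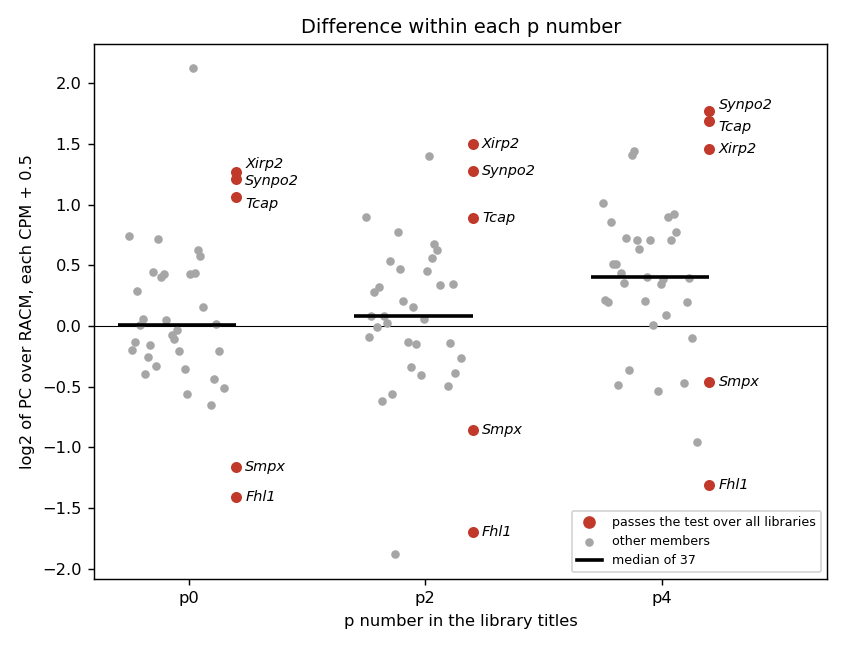
Log2 ratio of PC over RACM CPM (0.5 added to each) for each of the 37 genes within p0, p2 and p4, with the median as a black bar and the 5 called genes in red. The medians are 0.01, 0.08 and 0.41, and the red points stay on their own side of 0 in each column.

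A wider list of 50 other sarcomere scaffold and costamere genes, of which 48 were tested, gave 5 called higher in PC and 6 lower, where 3.69% and 3.57% of all genes were. With the block the counts were 10 and 7, where 5.96% and 5.60% of all genes were. Higher were Hspb8, a small heat shock protein that works with the filamin-clearing chaperone complex, at 75.7 ± 10.9 against 24.4 ± 5.97 CPM (log2 fold change 1.63, adjusted p = 0.00364), and Fbxo32, the muscle ubiquitin ligase atrogin-1, at 346 ± 95.0 against 95.1 ± 28.5 CPM (1.87, adjusted p = 0.00586). Sgcd, delta-sarcoglycan of the membrane complex that links to dystrophin, rose by 1.29 on the log2 scale (adjusted p = 0.00777), and Plec, the crosslinker plectin, by 0.87 (adjusted p = 0.0183). Plec no longer passed without PC p0, PC p2 or RACM p2. The other gene that rose, named after its values were seen, was Smyd1, at 1066 ± 115 against 640 ± 76.0 CPM (0.74, adjusted p = 0.0334). Lower in PC were Actn1 and Actn4, actin crosslinkers that non-muscle cells make. Actn1 was at 16.1, 10.8 and 10.5 CPM in the PC libraries and 42.0, 40.8 and 50.1 in the RACM libraries (-1.83, adjusted p = 0.00246), and Actn4 at 67.6 ± 15.8 against 148 ± 2.73 CPM (-1.13, adjusted p = 0.0087, and 0.0533 without PC p0). Vim, vimentin, the intermediate filament of fibroblasts and other mesenchymal cells, was at 161, 92.4 and 197 CPM in the PC libraries and 345.5, 442 and 984 in the RACM libraries (-1.98, adjusted p = 0.0234), and Flna, filamin A, at 151 ± 27.5 against 304 ± 85.5 CPM (-1.01, adjusted p = 0.0369). The other 2 genes that fell, named after their values were seen, were Cavin4, a caveolar protein of muscle, at 2.43 to 5.23 CPM in PC against 8.59 to 21.6 (-1.92, adjusted p = 0.0430), and Tmod3, the widely made tropomodulin, at 17.0 ± 3.03 against 49.7 ± 27.2 CPM (-1.55, adjusted p = 0.0395). Vim no longer passed without PC p0 or PC p2, and Flna passed when RACM p0 was left out and fell short when any other single library was. Vim, Flna, Tmod3, Actn1 and, by little, Actn4 were highest in RACM p4, the library with the highest summed fibroblast and macrophage markers. The part of those cells in their levels was not tested. Tmod3 was at 25.5, 44.5 and 79.2 CPM in the RACM libraries, with a log2 ratio of PC over RACM of -0.49 at p0 and -2.50 at p4. Cavin4 was highest in RACM p0.

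Of 19 contractile genes tested (myosins, troponins and tropomyosins), 2 were called higher and none lower, and with the block 3 and 2. Tpm1, the main tropomyosin of heart, was at 13796 ± 1250 CPM in the PC libraries and 6226 ± 335 in the RACM libraries (log2 fold change 1.15 ± 0.18, adjusted p = 0.00786). Myl9, a light chain best known from smooth muscle, rose by 0.67 on the log2 scale (adjusted p = 0.0413) and no longer passed when any single library was left out. Over all genes tested, 3.69% were called higher and 3.57% lower without the block, and 5.96% and 5.60% with it.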

How the data were processed

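For 6 RNA libraries the authors deposited raw counts per gene, which featureCounts 2.0.1 summed over mm10 exons from read pairs, with no option for strand or for reads mapping to several places, per the file headers. Per the submitters' processing notes, Trimmomatic, HISAT2 and edgeR (no versions given) were also used. The RNA was amplified and read as 100-bp pairs per the labels' protocols. Of 55487 gene IDs, 55141 matched a symbol and 33066 had any count. One row, CT010467.1, an rRNA-like gene, took 9.6 to 13.9% of the counts.

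Genes were kept by filterByExpr (minimum count 10, minimum total 15), which left 18015 and all 37 members. The main test was edgeR 4.0.16 (R 4.3.3), quasi-likelihood, 2-sided, TMM scaling, without a block, with Benjamini-Hochberg adjustment over all genes tested; the common biological coefficient of variation was 0.399. CPM use TMM-scaled library sizes (factors 0.914 to 1.09), and the SE of a log2 fold change was its size divided by the square root of F. CPM per kb divide by the merged exon bases of the file. DESeq2 1.42.0, limma-voom (limma 3.58.1), other scalings and filters, a 2-fold minimum, and leaving out each library were alternatives. The code was tested on simulated data.

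Libraries of one p number deviated together from their cell type's mean, with r of 0.16, 0.23 and 0.24 at p0, p2 and p4. Other pairings had r of -0.19 to -0.0015, but this contrast is partly forced. The deviations within a cell type cancel out for each gene, so positive r in matched libraries pushes the others to negative values. On the positive r of matched libraries, the number was taken to pair them. That rests on the data, since the labels do not say what the number marks. No 2 libraries of a cell type agreed within sampling noise. The labels call the pools biological replicates.

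Every member passing either fit, the 10 members of highest CPM per kb and the member of smallest p in each role were named with their value in each library; from the lists of other scaffold and contractile genes, the 4 called genes of smallest p per direction were named. Members, lists and markers were chosen with earlier results of these data known. Promoters are RefSeq's on GRCm38.p6, less the transcribed bases. ATAC-seq was not analysed here.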

Additional observations from a re-analysis of the deposited data

How the results depend on the processing

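Tcap, Synpo2, Xirp2, Hspb8, Fbxo32, Sgcd and Tpm1 kept their call under 15 of 16 alternatives and lost it only with the 2-fold minimum; Actn1 kept it under all 16. Over 47 genes and 16 alternatives, 648 values kept direction and side of the threshold, 26 passed it, 45 fell short of it and 30 changed sign; in 3 low genes (Acta1, Myom3 and Myot) a 5 CPM filter left no value. The paired analysis is the fit with the p number as a replicate block, which called 2082 genes, 10 members higher and 10 other scaffold genes higher, against 1309, 3 and 5 without it; the calls it changed stand beside each gene.

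With no filter, which tests all 33066 genes with any count, 2339 genes, 8 members higher and 8 other scaffold genes higher were called. The share of all genes called higher in that fit is not given here, so its counts are not read as a trait of the list. With DESeq2 the counts were 2304, 9 and 10. limma-voom called 5 members higher, which is not read as a trait of the list, since its share over all genes is not given here. The 2-fold minimum called 335 genes, 0 members higher, 0 members lower, and 0 other scaffold genes higher and 1 lower. Leaving the rRNA-like row out of library sizes left 1 member lower, as Smpx moved to an adjusted p of 0.0509. Without both p4 libraries 734 genes and 3 other scaffold genes higher were called, and the median over members was -0.02. Leaving out 1 library gave 511 to 1338 genes, 3 to 7 members higher, 0 to 2 lower, 3 to 6 other scaffold genes higher, 1 to 6 lower, and a median over members of 0.06 to 0.27. The cause of these changes was not tested.

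The genes that changed sign all lay near 0 or had few reads. Upper-quartile scaling and the 5 CPM filter each gave 0.00 for Mybpc3 and -0.02 for Nebl. limma-voom gave -0.32 for Myom3 and 0.00 for Palld. Without both p4 libraries the log2 fold changes were -0.09 for Ttn, -0.09 for Mybpc3, -0.83 for Myom3, -0.05 for Nebl and -0.02 for Nrap. Leaving out 1 library changed the sign of 11 genes, whose log2 fold changes then ranged from -0.24 to 0.24 in Acta1, -0.08 to 0.25 in Ttn, -0.08 to 0.20 in Mybpc3, -0.66 to 1.10 in Myom3, -0.06 to 0.17 in Nebl, -0.05 to 0.27 in Nrap, -0.27 to 0.26 in Synpo2l, -0.19 to 0.01 in Pdlim5, -0.20 to 0.08 in Mypn, -0.19 to 0.14 in Palld and -0.25 to 0.02 in Fhl2.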
